A study of Mus musculus with 24 samples.

Results

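Untreated mouse myeloma lines that resist bortezomib were compared with their untreated sensitive namesakes. The comparison uses the 4 arrays labelled 0 h, the start of the treatment series, of the 24 arrays of a bortezomib time course on 4 lines. The sensitive group holds 595sp and 638bm, and the resistant group holds 595sp VR and 638bm VR, with 1 untreated array for each line. All 4 lines carry the same genotype, Bcl-XL/Myc double transgenic, on a background of FVBN crossed with BL/6, and are described as cells derived from multiple myeloma. Each resistant line has the cell line name of its sensitive namesake in the labels, so the arrays form 2 pairs, the 595sp pair and the 638bm pair. The labels do not say how resistance was obtained, whether the VR lines were kept in drug until sampling, or whether a VR line is a single clone. They name no promoter or cell type for the transgenes.

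Bortezomib binds the catalytic subunit of the proteasome encoded by Psmb5, so that ubiquitinated proteins are no longer degraded and misfolded proteins build up. Plasma cells and myeloma cells secrete or store large amounts of immunoglobulin and are known for a high load on the proteasome and on the endoplasmic reticulum. Cells that grow in the drug are known, from other systems, to change the proteasome itself, protein folding, drug export, survival genes or metabolism. BCL-XL, one of the transgene products here, blocks the mitochondrial path of cell death, and MYC drives growth.

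Total RNA was amplified, labelled with biotin and read on 45281 probes of an Illumina bead array in 1 colour. A level is the log2 of the background-corrected and quantile-normalised intensity, and a difference is the VR line minus its sensitive namesake in log2 units, so that 1 unit is a doubling. Between 15353 and 17368 probes were above background on an untreated array. After probes had to be above background on at least 2 of the 4 arrays, 9124 genes remained, each represented by its brightest probe. Genes above background on fewer arrays were not measured.

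The cells carried B-lineage RNA. Of 16 mature B-cell marker genes with a probe, 14 were above background on at least 1 untreated array, among them Pax5, Ms4a1, Cd79b and Ebf1. Cd79b was bright, at log2 levels of 11.87 to 12.84. Ms4a1, at 4.93 to 5.72 and above background on 2 arrays, and Pax5, at 4.80 to 5.85 and on 3, lay near it. Of 12 plasma cell genes with a probe, 9 were above background, including Irf4, Sdc1, Xbp1 and Mzb1. Jchain, which joins immunoglobulin polymers, Prdm1, the regulator that defines plasma cells, and Tnfrsf17, the BCMA receptor, were above background on none of the 4. Among the B-cell genes, Bach2 and Cr2 were above background on none. So most of both lists was present, with some defining plasma cell genes at background. The 9 measured plasma cell genes summed, in linear intensity, to 28150 in 595sp and 14760 in 638bm. In 595sp VR and 638bm VR they summed to 18880 and 19210. Mzb1 was the brightest of the 9, at 14.47 and 13.35 in the sensitive and 13.87 and 13.61 in the VR lines. Being linear, these sums rest mostly on Mzb1. The summed intensity of the 12 measured B-cell genes was between 14210 and 16230 on the 4 arrays. Of 10 myeloid genes with a probe, 7 were above background on no untreated array, among them Lyz2, Cd14, Mpo and S100a8. The same held for 6 of 10 T and NK cell genes, with Cd3e, Cd4 and Cd8a among them, and for 9 of 10 stromal and endothelial genes. The 2 measured myeloid genes, Csf1r and Fcgr3, summed to 531.3 and 200.6 in the sensitive lines and to 90.6 and 83.8 in the VR lines. Fcgr3 lay near background in the VR lines, at 5.17 and 5.54. The 3 measured T and NK cell genes summed to 852.7 and 304.1 in the sensitive lines and to 1039 and 122.9 in the VR lines. The 1 measured erythroid gene, Epor, and the 1 measured stromal gene, Pecam1, lay between 41.8 and 235.9 on every array. So these values read a few genes, not whole lists. Because each array reads RNA of a whole culture, fewer cells of a type and less RNA per cell cannot be told apart.

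The differences of the 2 pairs had little in common. Across the 9124 genes, the differences of the 595sp pair and the 638bm pair correlated with Pearson's r = 0.121 and Spearman's rho = 0.132. This is a correlation across genes, which are not independent replicates. The levels of 595sp VR correlated at 0.914 with 595sp, 0.905 with 638bm and 0.91 with 638bm VR. Those of 638bm VR correlated at 0.906 with 638bm and 0.868 with 595sp, and the sensitive lines at 0.885 with each other. The SD of the differences across genes was 0.82 in the 595sp pair and 0.87 in the 638bm pair, around medians of 0.11 and 0.09. The spread between duplicate arrays of a line at 24 h was far smaller, with an SD of 0.12 to 0.18 per array. The SD of a difference between 2 such arrays is somewhat larger than this SD per array. In the 595sp pair, 662 genes were at least 1 unit higher in the VR line and 976 were at least 1 unit lower. In the 638bm pair, 909 were higher and 896 lower. Both pairs shared 75 higher genes, 0.822% of those measured, and 295 lower genes, 3.23%. The count of higher genes depended on the scale: it was 30 without background correction, 30 on the authors' processed values and 28 with a larger offset of 50, where the lower genes numbered 207, 207 and 200. A further 203 genes, 2.22%, differed by at least 1 unit in both pairs in opposite directions. Of the opposing genes, 79 were higher in 595sp VR and lower in 638bm VR, and 124 were the other way round. The shared lower genes alone outnumbered the opposing ones, and the shared higher genes did not. The 75 higher genes were 11.3% of the higher genes of the 595sp pair and 8.25% of those of the 638bm pair. The 295 lower genes were 30.2% and 32.9% of the lower genes of each pair.

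**Figure D1:**
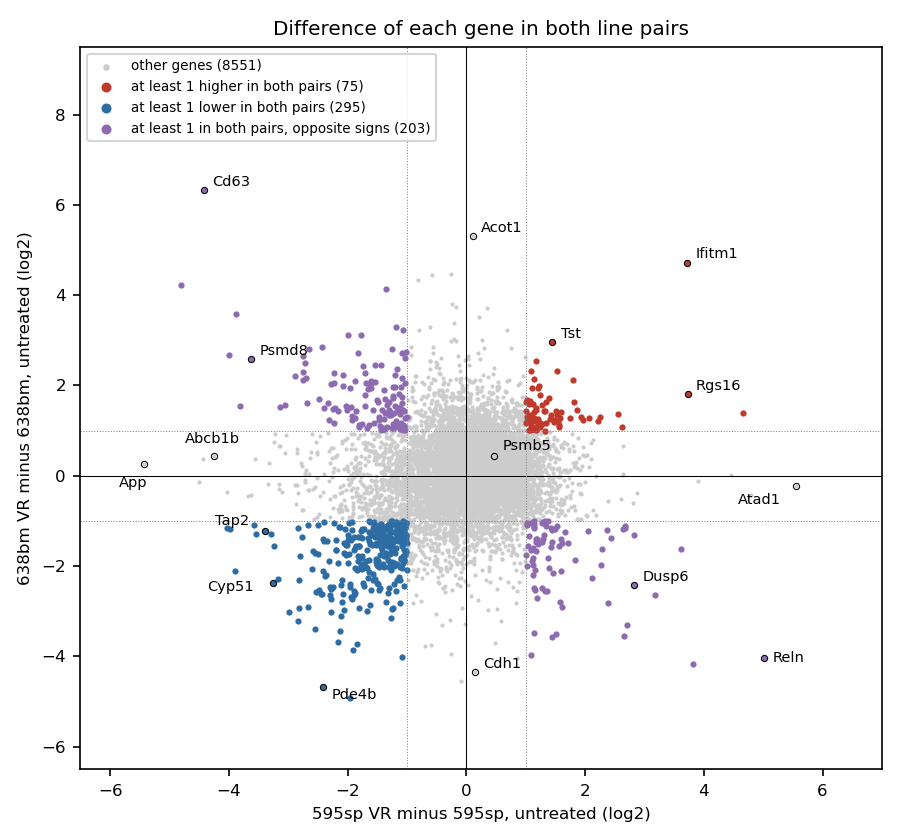
Difference between the untreated resistant and sensitive line of each gene, in log2 units, in the 595sp pair (x axis) and the 638bm pair (y axis); each point is 1 of 9124 genes and dotted lines mark 1 log2 unit. The 75 red genes were at least 1 higher in both VR lines, the 295 blue genes at least 1 lower, and the 203 purple genes differed in opposite directions.

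These counts were set against tests of different kinds of error. With the spread between the 2 pairs as the error (limma, line as a block, 1 residual degree of freedom), no gene passed an adjusted p of 0.05, which is 0% of 9124. The lowest adjusted p was 0.5404, and 714 genes (7.83%) had an unadjusted p under 0.05. An exact test of 2 pairs alone cannot go below a two-sided p of 0.5. The second test set each pair against the spread of the duplicate arrays at 24 h and therefore measures array error only, not the spread between resistant lines. There 4790 genes (52.5%) passed in the 595sp pair and 4899 (53.7%) in the 638bm pair. All 75 higher genes, 294 of the 295 lower genes and 202 of the 203 opposing genes passed it in both pairs. These genes were chosen for a difference of at least 1 unit on the same arrays, many times the duplicate SD, so their passing is a consequence of that choice and gives no support. Nothing in the labels says that the arrays came from separate cultures, so these p-values measure only the spread between arrays. In what follows, "higher" and "lower" describe these 4 arrays.

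The gene with the largest shared difference was Ifitm1, which encodes an interferon-induced membrane protein that restricts virus entry. Its level was 6.31 in 595sp and 7.53 in 638bm, against 10.03 in 595sp VR and 12.26 in 638bm VR. Both VR lines were far above both sensitive lines. The difference was 3.71 in the 595sp pair and 4.72 in the 638bm pair. The mean was 4.22 ± 0.42 (SE of the paired limma fit, 2 pairs, adjusted p = 0.5404), or 18.6-fold. In this fit limma draws each gene's SE toward a value common to all genes (3.69 prior against 1 residual degree of freedom). So such an SE is not the spread of the 2 pair values alone. A further 2 probes of Ifitm1 read 2.83 and 4.06, and 0.52 and 2.84. Both were higher in both VR lines, and the one with the smaller difference was above background on only 2 arrays. Ifitm1 remained higher at every later time, by 4.43 in the 595sp pair and 5.57 in the 638bm pair at 24 h. Of the 6 listed family members, Ifitm2 was the only other one measured, with differences of 0.69 and 3.22. Of 22 measured interferon-stimulated genes, 0 were at least 1 higher in both pairs and 0 lower, against 0.822% and 3.23% of all genes. A list this short may hold 0 at those shares. By any amount, 2 were higher in both pairs, as were 3162 of all 9124 genes, and 8 were lower, as were 2033. Their median differences were -0.79 and -0.07, against 0.11 and 0.09 over all genes.

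The promoter of Ifitm1 is shown because the gene leads the comparison and its family is named for its response to interferon. The RefSeq promoter table gives 250 bases before and 50 after the gene's start on mouse build GRCm38.p6, here chr7:140967826-140968125 on the plus strand.

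Ifitm1: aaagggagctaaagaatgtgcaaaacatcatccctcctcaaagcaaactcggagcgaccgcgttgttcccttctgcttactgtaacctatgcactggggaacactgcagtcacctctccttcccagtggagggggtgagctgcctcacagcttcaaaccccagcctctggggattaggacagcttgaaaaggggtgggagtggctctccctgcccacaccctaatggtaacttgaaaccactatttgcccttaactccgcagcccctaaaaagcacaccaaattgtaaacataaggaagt

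A simplified interferon-stimulated element, GAAA and again GAAA after any 2 bases, was searched on both strands. It was not found in this window, and 3.44% of 32851 RefSeq promoters of the same length hold it. No match says only that these letters are not in this window.

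Cbs and Tst, enzymes that handle sulfur compounds, were among the genes with the largest shared difference. Cbs, cystathionine beta-synthase, which commits homocysteine to the making of cysteine, had levels of 5.52 and 5.87 in the sensitive lines and 7.31 and 7.99 in the VR lines. The groups did not overlap, and the mean difference was 1.95 ± 0.36 (SE of the paired limma fit, 2 pairs). Its other probe gave 1.79 and 2.28, next to 1.79 and 2.11 for the main one. Tst, the mitochondrial thiosulfate sulfurtransferase, which handles sulfide and cyanide, was at 5.92 and 5.14 in the sensitive lines and at 7.37 and 8.10 in the VR lines. Its difference was larger in the 638bm pair, 2.96, than in the 595sp pair, 1.45, and at 24 h they were 2.83 and 1.20.

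Several higher genes act in signalling. Rgs16, which speeds GTP hydrolysis by G-protein alpha subunits, was at 5.98 and 9.33 in the sensitive lines and at 9.71 and 11.14 in the VR lines. The lower VR level lay just above the higher sensitive level, and the differences were 3.73 and 1.81. In the 638bm pair the difference was 0.22 at 8 h and -0.24 at 24 h. Fzd6, a receptor for Wnt ligands, was at 5.18 and 6.05 in the sensitive lines and at 6.71 and 8.37 in the VR lines, and its other probe differed by 2.19 and 2.68. Irs2, the adaptor of the insulin and IGF-1 receptors, differed by 1.51 and 1.43, but the level of 595sp VR, 6.56, lay below that of sensitive 638bm, 7.99. In the 638bm pair its difference was -0.63 at 2 h and -0.33 at 24 h, so the sign turned on the treated arrays. Pebp1, which binds and restrains RAF kinase, was 1.33 and 1.63 higher. Max, the partner through which MYC binds DNA, was 1.09 and 1.32 higher, and Jun, a subunit of the AP-1 factor, 1.57 and 1.12. The Jun levels overlapped, with 7.79 in 595sp VR and 7.89 in sensitive 638bm, and its difference was under 0.5 in both pairs at 2 h. At 24 h the Jun difference had turned, to -0.13 in the 595sp pair and -1.44 in the 638bm pair.

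Some higher genes act on proteins or peptides. Thop1, a cytosolic peptidase that cleaves short peptides such as those released by the proteasome, was at 8.40 and 8.61 in the sensitive lines and at 9.996 and 10.03 in the VR lines. The values within each group were close, the groups were apart, and the mean difference was 1.51 ± 0.35 (SE of the paired limma fit, 2 pairs). Thop1 stayed between 1.02 and 2.23 higher in both pairs at every later time. Gid4, the substrate receptor of a ubiquitin ligase complex, was 1.39 and 1.72 higher on a probe drawn from a cDNA clone. Its RefSeq probes differed by 0.65 and 0.19 and by 0.44 and 0.45. Bbs7, a subunit of the complex that moves membrane proteins to cilia, was 1.32 and 1.44 higher.

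Other leading genes included 2 gamma protocadherins, adhesion proteins best known from neurons. Pcdhgb4 was at 5.69 and 6.47 in the sensitive lines and at 7.51 and 8.11 in the VR lines. Pcdhgc5 differed by 1.86 and 1.46. Both are isoforms of 1 gene cluster that share their 3' exons, so a probe there may not tell them apart, and only these 2 of 22 listed isoforms were measured. Eno1b, a retrogene copy of the glycolytic enzyme enolase 1, differed by 2.55 and 1.37 and may share signal with its parent gene. The long noncoding RNA Cerox1, known to act on the expression of respiratory complex I subunits, was 1.43 and 1.34 higher, and the zinc finger gene Zfp763 1.53 and 1.34.

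**Figure D2:**
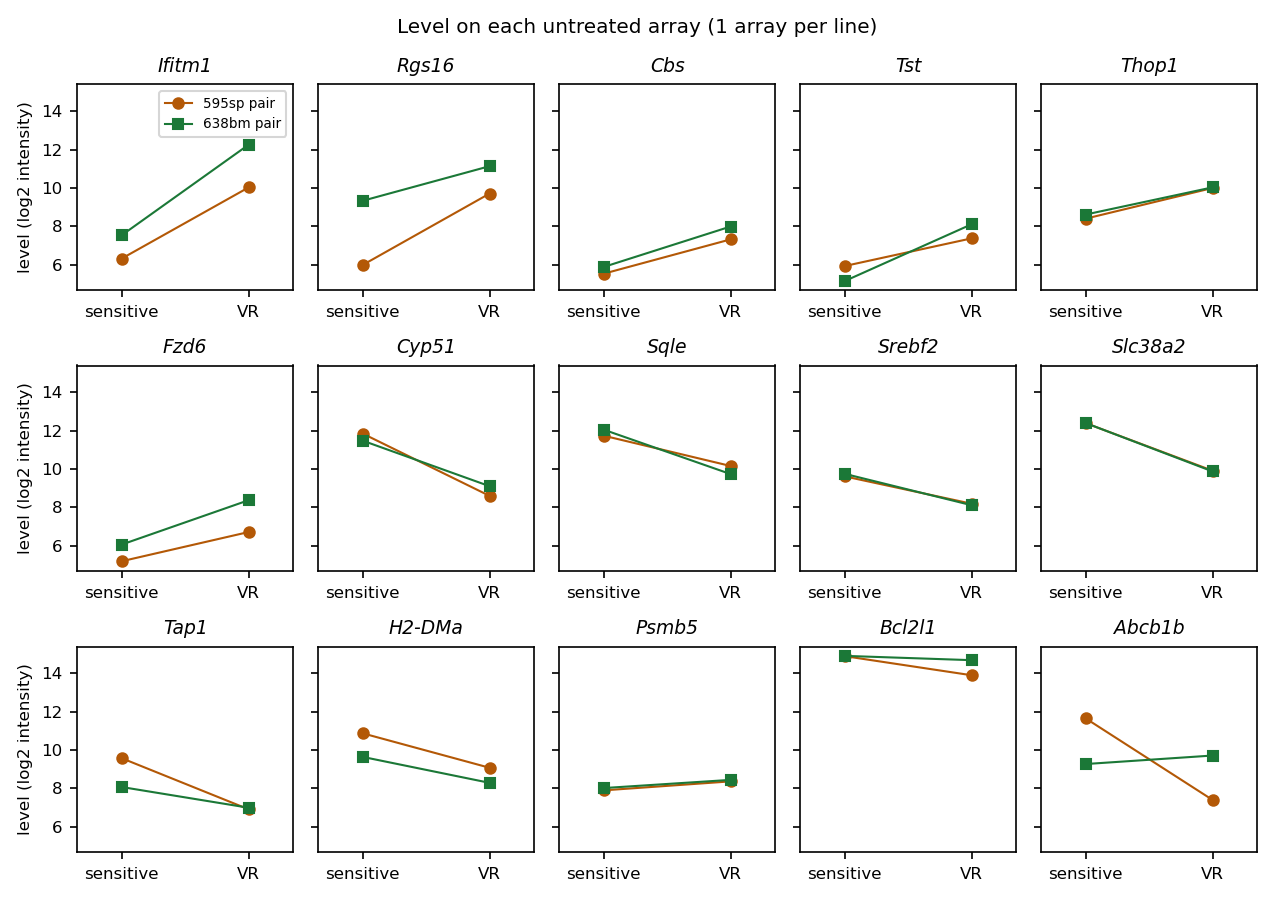
Level (log2 intensity) of 15 genes on the 4 untreated arrays; each line joins a sensitive line to its VR namesake, orange circles for the 595sp pair and green squares for the 638bm pair, with 1 array per point and no error bar. The first 6 genes were higher in both VR lines and the next 6 lower, and Psmb5, Bcl2l1 and Abcb1b did not reach 1 unit in both pairs.

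Histone genes were the list with the most shared higher members. Of 15 measured, 3 were at least 1 unit higher in both pairs (0.822% over all genes), 11 were higher by any amount in both, and the list's medians were 0.89 and 0.80 against 0.11 and 0.09 over all genes. H1f2, a linker histone, was at 9.60 and 11.36 in the sensitive lines and at 11.52 and 12.65 in the VR lines, and its other probe differed by 2.05 and 1.40. H2ac19 differed by 2.26 and 1.30, and H2ac18 by 2.22 and 1.21. Outside that list, H2bc9, H2bc14, H2bc15 and H4c18 were also shared higher, genes named after their values were seen, but the other probe of H4c18 read 0.42 and -0.20. Over the 46 measured genes with such histone symbols, 7 were shared higher and 0 shared lower. Many histone genes are near-identical copies, so their probes may not be told apart. The members took different courses in drug. The difference of H1f2 was -2.48 in the 595sp pair and -2.32 in the 638bm pair at 16 h. H2ac18 was still 1.70 and 1.98 higher at 8 h, and differed by 0.87 and -0.11 at 24 h. H2ac19 differed by 1.31 and 1.72 at 8 h and by 0.84 and -0.07 at 24 h.

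Among the lower genes, sterol synthesis was the list with the most shared members, and fatty acid synthesis stood beside it. These are the enzymes that the factor SREBP2, the product of Srebf2, switches on when cell cholesterol is low, and the desaturases and elongases that shape membrane lipids. Of 12 measured sterol genes, 5 were at least 1 unit lower in both pairs and 0 higher, where 3.23% of all genes were lower. The list's medians were -0.24 in the 595sp pair and -1.45 in the 638bm pair. Cyp51, lanosterol demethylase, was at 11.84 and 11.47 in the sensitive lines and at 8.59 and 9.10 in the VR lines. Sqle, squalene epoxidase, was at 11.73 and 12.05 in the sensitive lines and at 10.15 and 9.73 in the VR lines. In both genes the groups were clearly apart, and the other probe of Sqle differed by -1.35 and -2.27. Msmo1, a sterol oxidase, differed by -1.68 and -2.99, and Dhcr7, the last enzyme of cholesterol synthesis, by -2.24 and -1.05. Srebf2 itself was at 9.61 and 9.74 in the sensitive lines and at 8.18 and 8.11 in the VR lines. A clone probe of Srebf2 gave 0.24 and -1.07. Not all of the pathway moved this way: Idi1, isopentenyl diphosphate isomerase, was 0.44 and 0.84 higher, and Lss, lanosterol synthase, differed by 0.36 and -1.26.

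Of 11 measured fatty acid genes, 4 were shared lower, against 3.23% of all genes. Elovl5, which lengthens polyunsaturated fatty acids, was at 12.57 and 12.01 in the sensitive lines and at 10.90 and 9.95 in the VR lines. The desaturases Scd2 (-1.46 and -2.50), Scd1 (-1.27 and -1.38) and Fads1 (-1.05 and -2.44) were the other members, and a clone probe of Fads1 read -0.46 and -0.25. Scd1 levels overlapped, since 638bm VR at 10.27 was above sensitive 595sp at 9.93. Fads2, another desaturase, differed by -3.19 in the 638bm pair and by -0.28 in the 595sp pair. Fasn, which builds palmitate, differed by 0.996 and -0.47.

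The differences of Cyp51, Sqle, Msmo1 and Srebf2 took a different course in each pair. In the 595sp pair they were first as large or larger: Sqle differed by -2.52 and Msmo1 by -2.46 at 2 h, and Srebf2 by -1.85 and Cyp51 by -3.50 at 8 h. In the 638bm pair the values at 8 h were -0.82 for Sqle, -0.86 for Msmo1, -0.85 for Srebf2 and -1.03 for Cyp51, nearer to 0 than at 0 h. The other shared lipid genes did not all follow. In the 595sp pair Dhcr7 (-1.39) and Scd1 (-0.69) were nearer to 0 at 8 h than at 0 h, while Elovl5, Scd2 and Fads1 were not. In the 638bm pair Elovl5 (-1.98) and Scd1 (-1.395) stayed near their 0 h values at 8 h, while Dhcr7, Scd2 and Fads1 were nearer to 0. At 24 h Cyp51 differed by 0.05 and 0.20. At that time Srebf2 differed by 0.48 and 0.01, and Sqle by 0.61 and -0.24. In the 638bm pair the values of Msmo1, -0.97, and Elovl5, -1.12, were still below 0 at that time.

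Promoters of 3 of the sterol genes are shown because these genes were lower together and are known SREBP2 targets. Capitals mark CCAAT on either strand, the box bound by the factor NF-Y, which works beside SREBP2 at many sterol genes. The windows, on GRCm38.p6 from RefSeq and written in the direction of the gene, are chr5:4104648-4104947 on the minus strand for Cyp51, chr8:64733529-64733828 on the minus strand for Msmo1, and chr15:82147019-82147318 on the plus strand for Srebf2.

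Cyp51: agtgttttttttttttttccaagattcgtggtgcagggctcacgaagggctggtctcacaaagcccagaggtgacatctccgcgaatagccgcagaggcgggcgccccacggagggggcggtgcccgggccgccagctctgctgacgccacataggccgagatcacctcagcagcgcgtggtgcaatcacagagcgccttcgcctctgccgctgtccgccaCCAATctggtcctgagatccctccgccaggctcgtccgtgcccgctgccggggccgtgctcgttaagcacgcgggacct

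Msmo1: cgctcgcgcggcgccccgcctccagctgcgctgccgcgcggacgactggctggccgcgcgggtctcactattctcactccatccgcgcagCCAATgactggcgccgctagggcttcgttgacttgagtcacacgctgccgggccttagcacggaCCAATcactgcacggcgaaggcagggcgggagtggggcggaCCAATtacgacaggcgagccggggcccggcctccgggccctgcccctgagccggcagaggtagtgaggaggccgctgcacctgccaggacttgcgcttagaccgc

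Srebf2: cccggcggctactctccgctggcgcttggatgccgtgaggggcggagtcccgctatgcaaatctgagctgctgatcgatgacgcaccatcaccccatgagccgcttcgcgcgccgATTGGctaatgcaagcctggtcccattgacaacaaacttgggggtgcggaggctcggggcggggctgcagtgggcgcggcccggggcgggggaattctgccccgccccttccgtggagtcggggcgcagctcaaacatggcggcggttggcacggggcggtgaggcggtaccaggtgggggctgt

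Cyp51 had 1 CCAAT match, Msmo1 had 3, and Srebf2 had 1 on the reverse strand. Of the 9 lower lipid genes, 5 had an entry in the promoter table, and all 5 held a match, as did the 3 lower H2-DM genes. A gene was counted if any of its entries matched, and CCAAT was in 1 of 3 entries for Dhcr7 and 1 of 2 for H2-DMa. The box is common: 37.4% of the 32851 promoters hold it. That share is per promoter, so it is unlike these counts per gene, which are favoured by genes with several entries. By the same count per gene, CCAAT was found in 11 of the 15 shared higher genes searched and in 18 of the 28 shared lower ones. The longer form TCACNCCAC, a simplified sterol element, was not found in these 3 windows and is held by 1.24% of promoters. These matches describe letters only.

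Some genes of antigen presentation were lower in both VR lines. MHC class I displays peptides that the proteasome has cut, and class II displays peptides from taken-up proteins. Of 10 measured class I genes, 4 were at least 1 unit lower in both pairs, where 3.23% of all genes were, and 0 were higher. The medians were -1.88 and -0.74 against 0.11 and 0.09 over all genes. Tap1 and Tap2 form the pump that brings peptides into the endoplasmic reticulum. Tap2 was at 11.46 and 9.79 in the sensitive lines and at 8.07 and 8.56 in the VR lines. Tap1 differed by -2.67 and -1.08, and its VR levels, 6.90 and 6.98, lay close together. Nlrc5, the activator of class I genes, differed by -2.05 and -1.19. Tapbp, tapasin, which loads peptides onto class I, differed by -1.21 and -1.04, but its second RefSeq probe differed by 0.88 and 0.85 in the other direction, so the direction of this gene depends on the probe. The class I chain H2-K1 differed by -2.65 in the 595sp pair and by 0.03 in the 638bm pair, and Tapbpl, a relative of tapasin, by 0.37 and -0.66.

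Of 13 measured class II genes, 3 were shared lower and 1 opposed, against 3.23% and 2.22% of all genes, with medians of -1.72 and -0.67. H2-DMa, H2-DMb1 and H2-DMb2, which exchange peptides on class II molecules, were the 3. H2-DMa was at 10.87 and 9.64 in the sensitive lines and at 9.07 and 8.28 in the VR lines, and its other probe differed by -1.78 and -1.62. H2-DMb2 differed by -1.69 and -1.89, and H2-DMb1 by -1.72 and -1.19. The class II chains H2-Aa (-1.56 and -0.92), H2-Ab1 (-2.11 and -0.62) and H2-Eb1 (-2.04 and -0.67) and the invariant chain Cd74 (-0.99 and -0.84) were lower in both pairs but under 1 unit in one. H2-Oa, which restrains H2-DM, went in opposite directions, -1.96 and 1.96, and its other probe gave -2.04 and 1.61. Ctss, a protease that trims the invariant chain, differed by -0.56 and 0.93, and Cd86, a costimulatory ligand, by -2.02 and 0.17.

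**Figure D3:**
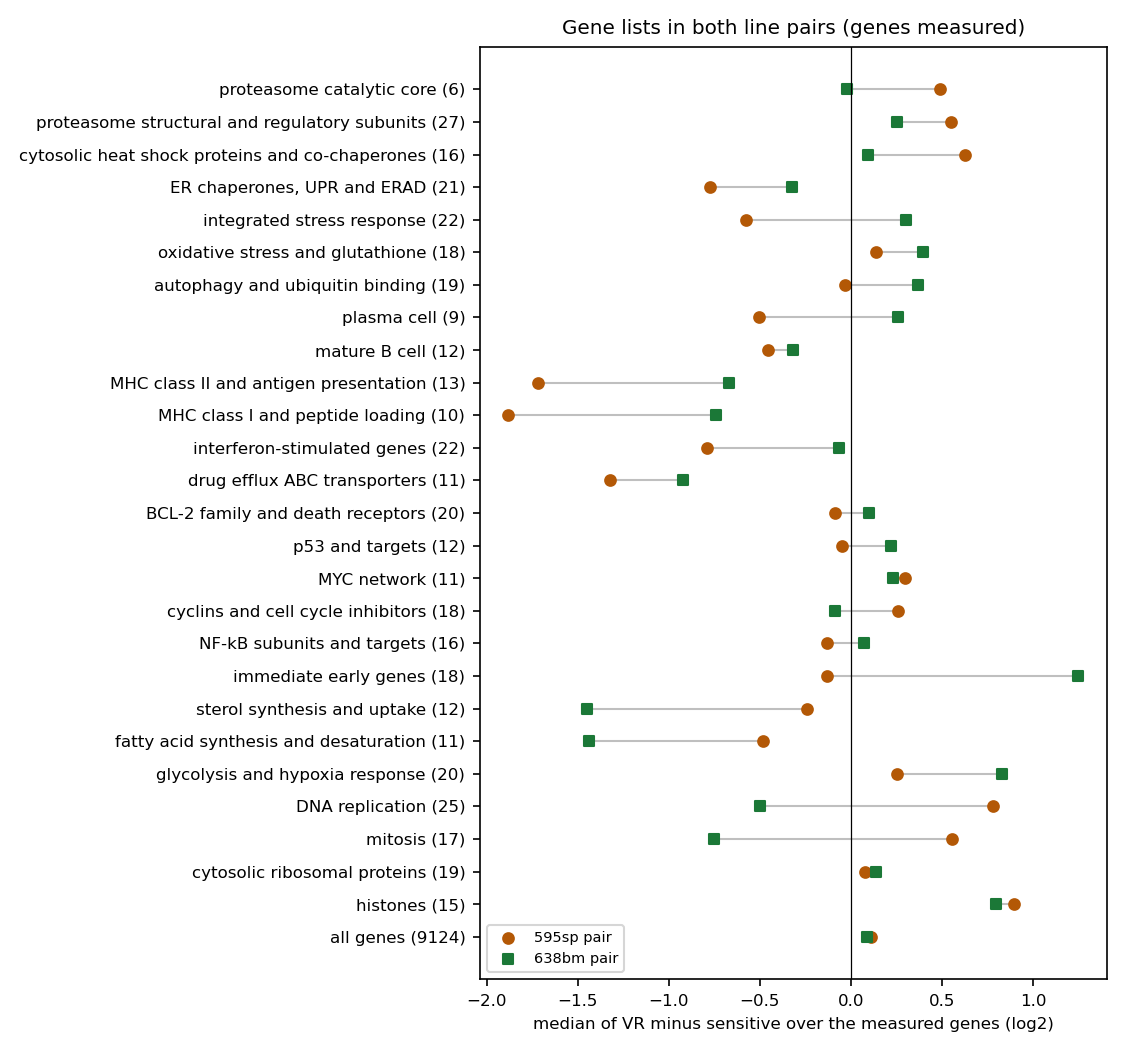
Median difference between VR and sensitive line (log2) over the measured genes of each list with 6 or more of them, orange circles for the 595sp pair and green squares for the 638bm pair; the number of measured genes stands in brackets and the bottom row is all 9124 genes. MHC class I sat at -1.88 and -0.74 and histones at 0.89 and 0.80, while DNA replication and mitosis lay on opposite sides of 0 in the 2 pairs.

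Solute carriers were frequent among the lower genes, a group formed after the values were seen and therefore given with no test. Of 164 measured, 19 were lower in both pairs (11.6%, against 3.23% of all genes) and 0 were higher, and 17 of the 19 stood on RefSeq probes. Slc38a2, a sodium-coupled carrier of neutral amino acids, was at 12.39 and 12.39 in the sensitive lines and at 9.91 and 9.87 in the VR lines. Each pair differed by almost the same amount, -2.48 and -2.53, its other probe gave -1.36 and -1.85, and at 24 h it still differed by -1.32 and -2.58. Slc7a3, a carrier of cationic amino acids, differed by -3.99 and -1.18, but its second probe, above background on 2 arrays, read -0.50 and 0.32. Differences were also seen for Slc6a9, the glycine transporter (-2.58 and -1.66), and Slc1a4, a carrier of alanine, serine and cysteine (-2.01 and -1.53). Slc2a1, the glucose transporter GLUT1, was at 12.17 and 11.92 in the sensitive lines and at 10.51 and 10.54 in the VR lines. It was the only shared lower gene among 20 measured glycolysis and hypoxia genes.

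Rgs1, Zap70, Fcgr3 and Plk2 were further lower genes. Rgs1, like Rgs16 a brake on G-protein signals but known for limiting B-cell migration, was at 10.30 and 8.98 in the sensitive lines and at 7.12 and 6.69 in the VR lines. Its other 2 probes differed by -2.45 and -1.39 and by -2.52 and -1.66, and at 24 h it still differed by -2.35 and -4.11. So Rgs1 and Rgs16, of the same family, differed in opposite directions on the untreated arrays. Zap70, a kinase of T-cell receptor signalling, differed by -1.87 and -2.59, and Fcgr3, an Fc receptor of myeloid and NK cells, by -2.50 and -1.74. Zap70 is on the T and NK cell list, of which Cd3g (0.83 and -0.02) and Cd247 (0.06 and 0.34) were also measured and 6 of 10 were at background on every untreated array. Fcgr3 is on the myeloid list, of which Csf1r (-2.59 and -0.28) was also measured and 7 of 10 were at background. The part of such cells in these values was not tested. Plk2, a kinase induced by p53, differed by -1.66 and -2.27. It was the only shared gene of 12 measured p53 genes, where 3.23% of all genes were shared lower.

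Tspoap1, which binds the mitochondrial protein TSPO, was at 11.10 and 10.13 in the sensitive lines and at 8.28 and 7.82 in the VR lines. It was lower at every time, with -2.58 in the 595sp pair and -1.23 in the 638bm pair at 24 h. B3gnt8, a glycosyltransferase that extends sugar chains, differed by -2.30 and -2.65, and its second probe by -1.35 and -0.68. Psg23, a pregnancy-specific glycoprotein, differed by -2.66 and -2.90, but it belongs to a large family of close copies. Nmd3, the adaptor that exports large ribosomal subunits, differed by -2.56 and -3.40 on 1 RefSeq probe and by 0.90 and -0.31 on the other, so its difference rests on a single probe.

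The remaining lower genes with the largest differences stood on probes drawn from cDNA clones or other non-RefSeq accessions. Pex13, of the peroxisomal import machinery, was at 8.35 and 8.09 in the sensitive lines and not above background in the VR lines, which makes it at least 6.73-fold lower. Nktr, a cyclophilin, differed by -2.84 and -3.21, Tmem164 by -2.82 and -2.94, the nuclear importer Ipo7 by -2.53 and -2.58, and Hadha, of mitochondrial fatty acid oxidation, by -2.46 and -2.61. Trpm7, a channel with a kinase domain, differed by -2.44 and -2.61, and the cAMP phosphodiesterase Pde4b by -2.41 and -4.68. The RefSeq probe of Tmem164 read 0.09 and -0.18, and that of Pde4b 0.22 and -0.31. Clasp2, which binds microtubule ends, differed by -2.30 and -2.47 on its brightest probe and by 0.16 and 0.22 on its RefSeq probe.

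This division between kinds of probe, looked at after the values had been seen, ran through the whole array. Of 1112 measured probes annotated to a cDNA clone, 227 (20.4%) were at least 1 unit lower in both pairs, against 303 of 13108 RefSeq mRNA probes (2.31%). The median difference of clone probes was -0.39 in the 595sp pair and -0.53 in the 638bm pair, and that of RefSeq probes was 0.15 and 0.12. The clone probes also differed alike in the 2 pairs, with r = 0.695 across probes against 0.094 for RefSeq probes. Within levels of 6 to 7, 35.6% of clone probes and 2.20% of RefSeq probes were shared lower, and over 8 the shares were 26.2% and 3.25%. In 716 genes with both kinds, the clone probes had medians of -0.43 and -0.62 and the RefSeq probes of the same genes 0.13 and 0.01. At least 1 unit lower in both pairs were 158 of these genes by the clone probes and 15 by the RefSeq probes. So the kinds of probe often read different changes of the same gene.

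Of the 295 shared lower genes, 75 stood on clone probes, 14 on other accessions and 206 on RefSeq probes. Of the 75 higher genes, 68 stood on RefSeq probes. With RefSeq probes alone, 68 genes were shared higher, 210 lower and 194 opposite of 8676. What the clone probes bind was not tested here, since the probe sequences were not used.

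**Figure D4:**
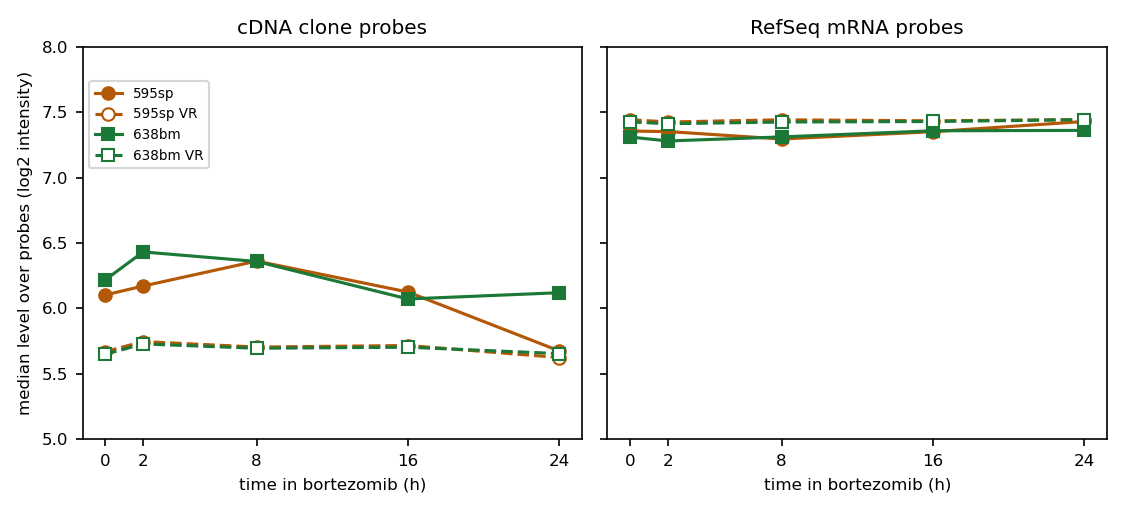
Median level (log2 intensity) over 1112 cDNA clone probes (left) and 13108 RefSeq mRNA probes (right) by time in 33 nM bortezomib, filled symbols and solid lines for sensitive lines, open symbols and dashed lines for VR lines. Clone probes sat between 5.62 and 5.75 in both VR lines at all times and higher in the sensitive lines except 595sp at 24 h, at 5.67; the levels of the 2 kinds are not to be set against each other.

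The drug target itself differed little. Psmb5 was at 7.89 and 8.01 in the sensitive lines and at 8.36 and 8.44 in the VR lines, differences of 0.47 and 0.43. Neither passed the limma test against duplicate arrays (adjusted p = 0.0971 and 0.126). On the treated arrays the difference of Psmb5 was 1.26 and 1.14 at 2 h, and 0.42 and 1.24 at 24 h. Of the 6 catalytic subunits of the standard and immune proteasome, 0 were shared higher or lower, against 0.822% and 3.23% of all genes. Lists as short as this and the next may hold 0 at those shares. Of 27 measured structural and regulatory subunits, 0 were shared and 1 opposed, against 2.22% of all genes, with medians of 0.55 and 0.26. The one that opposed was Psmd8, a subunit of the regulatory lid, at 10.22 in 595sp and 6.59 in 595sp VR but at 7.66 in 638bm and 10.25 in 638bm VR.

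Of the transgenes, Bcl2l1, which encodes BCL-XL, was at 14.90 and 14.91 in the sensitive lines and at 13.90 and 14.69 in the VR lines. The difference passed the limma test against duplicate arrays in the 595sp pair (-0.997, adjusted p = 5.7e-04) and not in the 638bm pair (-0.22, adjusted p = 0.279). The second probe of Bcl2l1 differed by -0.83 and -0.70, so the size in the 638bm pair depends on the probe. The brightest raw signals of the untreated arrays were 29628 to 34321 in linear units, and the Bcl2l1 levels of the sensitive lines lay near that top. Whether differences are compressed there was not tested. Myc was 0.77 higher in 595sp VR and 1.19 higher in 638bm VR. Whether these probes read the transgene or the mouse's own gene was not tested. The 20 measured BCL-2 family and death receptor genes held 0 shared genes, where 0.822% of all genes were shared higher and 3.23% lower. A list this short may hold 0 at those shares. Its medians were -0.09 and 0.10.

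Of 11 measured ABC transporters of drugs and lipids, 0 were shared higher and 2 were shared lower, against 0.822% and 3.23% of all genes. By any amount, 9 of the 11 were lower in both pairs, as were 2033 of all 9124 genes. Abca3, a lipid transporter of lysosome-like vesicles, differed by -1.64 and -2.12 and its second probe by -1.54 and -2.10, and Abcg1, a cholesterol exporter, by -1.05 and -1.88. Abcb1b, 1 of the 2 mouse genes for P-glycoprotein, was at 11.65 in 595sp and 7.39 in 595sp VR, and at 9.26 in 638bm and 9.71 in 638bm VR. It was far lower in 1 pair and 0.44 higher in the other. The probe of the other P-glycoprotein gene, Abcb1a, was above background on no untreated array.

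Stress and folding genes are read here against the shares over all genes, 0.822% shared higher, 3.23% shared lower and 2.22% opposing. Of 21 measured genes of the endoplasmic reticulum's folding and disposal machinery, 1 was shared lower, 1 opposed and 10 were lower by any amount in both pairs, with medians of -0.77 and -0.32. The shared gene was Syvn1, the ubiquitin ligase that marks misfolded proteins for disposal, at 13.59 and 13.64 in the sensitive lines and at 11.83 and 12.46 in the VR lines. The folding enzyme Pdia3 differed by -0.93 and -1.29, and Hsp90b1, the HSP90 of that compartment, by -0.75 and -1.19. Cytosolic heat shock genes (16 measured), oxidative stress genes (18) and autophagy genes (19) held 0 shared genes. Among the 22 measured genes of the integrated stress response, 0 were shared and 3 opposed, against 2.22% of all genes: Chac1, Atf3 and Atf5 were lower in 595sp VR and higher in 638bm VR. Atf3, a stress-induced factor, differed by -1.99 and 3.12, and Chac1, which degrades glutathione, by -2.40 and 1.49.

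Genes of cell division went different ways in the 2 pairs. The 25 measured DNA replication genes had a median of 0.78 in the 595sp pair and -0.50 in the 638bm pair, and 21 of the 25 had different signs in the 2 pairs, as did 3929 of all 9124 genes. Cdc45, needed to open replication origins, was 1 unit higher in 595sp VR and differed by -1.76 in the 638bm pair. The 17 measured mitosis genes had medians of 0.56 and -0.75, with different signs in 16. Ccne2 and E2f2, which drive entry into S phase, differed by 1.71 and -1.50 and by 1.42 and -1.16. Ccnd1, cyclin D1, was 3.73 higher in 638bm VR and differed by -0.18 in the 595sp pair, and its other 2 probes were 3.89 and 2.95 higher. Ccnd3, cyclin D3, differed by 1.15 and -1.08. Immediate early genes also separated the pairs: of 18 measured, Jun alone was shared and 4 opposed, against 0.822% and 2.22% of all genes, with medians of -0.13 and 1.25.

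Many genes differed strongly in 1 pair alone. In the 595sp pair, Atad1, which extracts misplaced proteins from mitochondria, was at 5.06 in 595sp and 10.62 in 595sp VR, and at 11.72 and 11.50 in the 638bm lines. Tomm22, of the mitochondrial import pore, was at 6.27 in 595sp and 10.18 in 595sp VR, and at 10.31 and 10.18 in the 638bm lines. Cd6, a lymphocyte receptor, was at 4.73 in 595sp and 9.52 in 595sp VR, and at 11.02 and 10.59 in the 638bm lines. In all 3, sensitive 595sp was the array that stood apart. The second probe of Tomm22 differed by 0.57 and 0.25, and 2 of the 3 other Cd6 probes by 4.05 and 4.66 in that pair. Tcea3, an elongation factor, was 4.46 higher, and Prkcz, an atypical protein kinase C, 2.87 higher. App, the amyloid precursor, was at 11.96 in 595sp and 6.53 in 595sp VR, and at 5.18 and 5.45 in the 638bm lines. Lgals3bp, a secreted galectin ligand, differed by -4.50, the stress gene Nupr1 by -4.44 and the costimulatory receptor Cd28 by -4.04. Atad1, Cd6 and Prkcz (4.81) in 595sp, and Nupr1 (5.31) and Cd28 (5.45) in 595sp VR, lay near background. The sizes of their differences are therefore not exact.

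In the 638bm pair, Acot1, which hydrolyses fatty acyl-CoA, was at 6.33 in 638bm and 11.65 in 638bm VR, and at 6.56 and 6.67 in the 595sp lines. Tubb6, a tubulin, was 4.46 higher, Khk, the fructose kinase, 3.82 higher, and Fos, the partner of Jun, 3.71 higher. The difference of Fos was 0.81 at 2 h and -0.41 at 24 h, whereas that of Acot1 was 4.45 at 24 h. Lower in this pair were Tdrd9, a helicase of germ cells (-4.55), the adhesion protein Cdh1 (-4.36), the sodium channel Scn11a (-3.94), the scaffold Akap12 (-3.71) and the kinase Sgk1 (-3.30). Tdrd9 (4.996), Cdh1 (5.14) and Scn11a (5.68) lay near background in 638bm VR, so the sizes of these 3 differences are not exact. Among opposing genes, 3 chosen after their values were seen show the range. Cd63, of late endosomes, differed by -4.43 and 6.33, Reln, a secreted matrix protein, by 5.02 and -4.03, and Rag1, the V(D)J recombinase, by 2.71 and -3.31. Rag1 was above background on only 2 arrays, with 595sp at 5.05 and 638bm VR at 5.04, so the sizes of its differences are not exact.

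Other probes offered a check for part of the genes. Of the 75 higher genes, 22 had another measured probe, in 17 of these (77.3%) all other probes had the same signs in both pairs, and in 6 all reached 1 unit. Of the 295 lower genes, 147 had another probe, all had the same signs in 100 (68.0%), and all reached 1 unit in 34. Of the 203 opposing genes, 78 had another probe, with the same signs in 69 and at least 1 unit in 19. The other probes are dimmer by the rule that chose the brightest. Just inside the limit of 1 unit, in the pair that differed less, stood Vcpkmt and H2bc9 at 1.001, and just outside stood Taf13 at 0.999 and Wbp4 at 0.997. Sik2 and Atp9b lay on the limit to the third decimal, the former inside and the latter outside.

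The treated arrays gave a further reading of each line. Of the 75 higher genes, 74 were still higher in both pairs 2 h into treatment, and 53 were at the 24 h point. Of the 295 lower genes, 289 were still lower at the former time and 208 at the latter. The median difference of the lower genes in the 595sp pair went from -1.50 at 0 h to -0.31 at 24 h, and in the 638bm pair from -1.57 to -1.02. The opposing genes kept their signs in 183 of 203 at 24 h. These later values come from cells in 33 nM bortezomib, so they are not repeats of the untreated state.

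**Figure D5:**
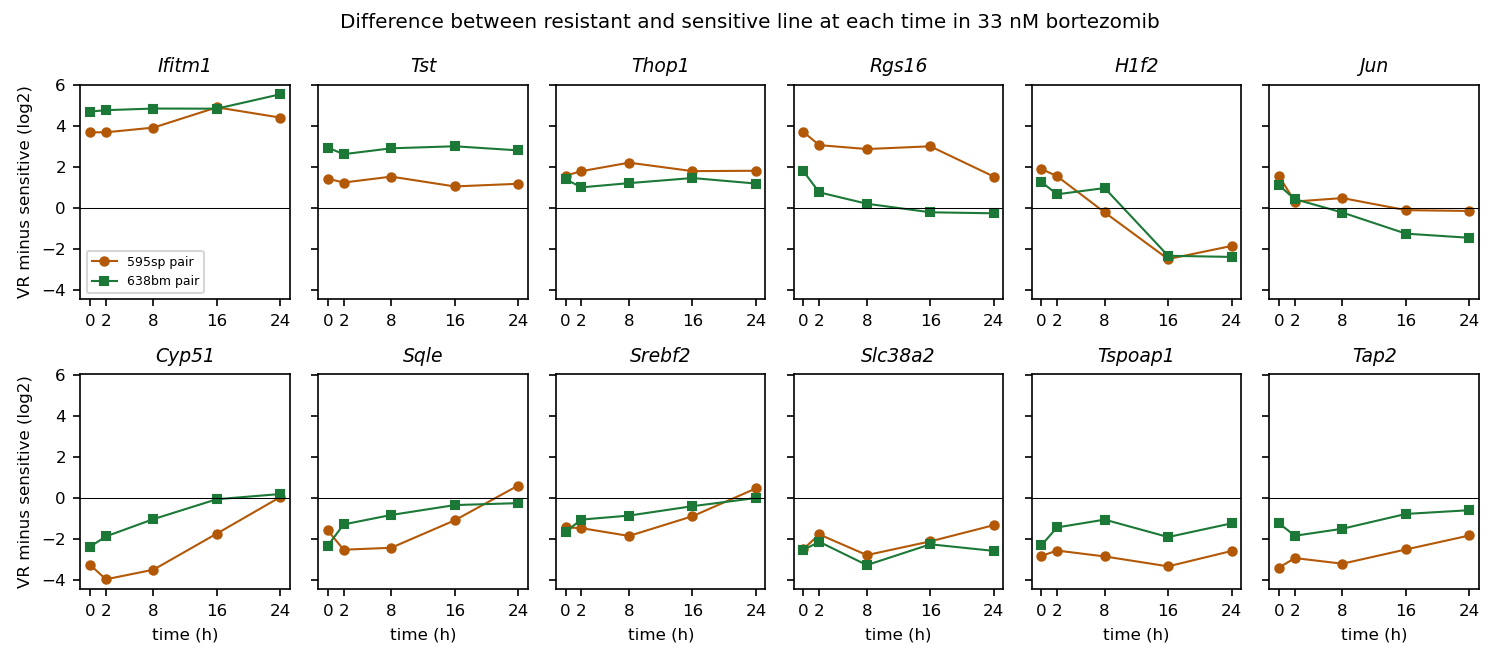
Difference between VR and sensitive line (log2) at 0, 2, 8, 16 and 24 h in 33 nM bortezomib for 12 named genes, orange circles for the 595sp pair and green squares for the 638bm pair; the 24 h points are means of 2 arrays per line and the others are single arrays. Ifitm1, Tst, Thop1, Slc38a2 and Tspoap1 kept their direction at all times, while H1f2 turned to -2.48 and -2.32 at 16 h and Cyp51 reached 0.05 and 0.20 at 24 h.

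The table's columns were cut by their order into runs of 6 arrays, and the labels do not say what these runs are. The log2 background level was 5.45 to 5.544 in the first run and 6.047 to 6.192 in the second. It was 5.858 to 5.993 in the third and 5.895 to 5.984 in the fourth, so this level does not tell the last 2 apart. Both arrays of the untreated 595sp pair lie in the first run, so the values of that pair are within a run, while 638bm lies in the second and 638bm VR in the third. A fit with the run as a term could not be made on 4 arrays. One 24 h array of each line lies in the fourth run: on those 4 arrays alone, 54 of the 75 higher genes (72.0%) and 208 of the 295 lower genes (70.5%) had the same signs in both pairs as at 0 h.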

How the data were processed

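Total RNA of the mouse lines was labelled with biotin and hybridised to Illumina bead arrays, per the labels' protocols. The deposited table holds the average signal of each probe per array, a linear intensity between 31.94 and 38749.43 that per the file headers is not normalized; detection p-values were not used. The authors' processed table of the same arrays was used as an alternative; the sources used here do not give how its values were made. The 24 columns were tied to samples by title, and 638bm VR carries time labels that disagree with titles on treated arrays but not at 0 h.

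Each array was background-corrected with limma 3.58.1 in R 4.3.3 (normexp, saddle-point fit, offset 16), quantile-normalised over all 24 arrays and taken to log2. A probe was above background where its log2 signal exceeded the array's mode by 2.326 SD of the values mirrored below the mode. Probes above background on at least 2 of the 4 untreated arrays were kept, 17237 of 45281, of which 14601 had 1 gene symbol; the brightest stood for the gene. Probe names came from the platform's annotation: 34885 probes had 1 symbol, 18 several and 10378 none, and RefSeq (GRCm38.p6) held 34807 of them by gene number, with 0 symbols changed. Where a group is below background on all arrays, a bound uses the lowest signal among probes above background.

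A gene was shared when it differed by at least 1 log2 unit with the same sign in both pairs and was above background on both arrays of the higher group. The paired limma fit had line as a block, with the pairing taken from the cell line label. The fit against duplicates used 12 arrays, 4 at 0 h and 8 at 24 h, with 4 residual degrees of freedom. P-values were adjusted by Benjamini and Hochberg over 9124 genes. The procedures were tested on simulated data. The number of arrays, 1 per line, limits the precision.

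Genes named are the 15 in each direction with the largest difference in the pair that differs less, up to 5 per gene list (32 lists), 5 per pair and direction among genes under 0.5 in the other pair, and Psmb5, Myc, Bcl2l1, Abcb1a and Abcb1b; provisional names were left out. Other genes named beside them were chosen after their values were seen. Lists, members and rules were chosen with earlier results of these data known. Alternatives changed the normalisation, the background correction, the source table, the filter, the probe, the pairing, the fold limit and the arrays in the fit.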

Additional observations from a re-analysis of the deposited data

Results flagged for a closer look

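Of 97 named or listed genes looked at, 49 differed between the pairs by at least 1 log2 unit and passed the limma test of that difference against duplicate arrays; over all 9124 genes, 2558 did. Opposing genes and genes of 1 pair were chosen for differing between the pairs on these same arrays. Their passing follows from that choice, so 49 of 97 is not to be set against the share over all genes. The values in brackets are the difference in the 595sp pair minus that in the 638bm pair. Opposing genes of the lists were Cd83 (-6.67), Psmd8 (-6.22), Atf3 (-5.11), Eno2 (-4.18), H2-Oa (-3.92), Chac1 (-3.89), Derl3 (-3.55), Atf5 (-3.19), Zfp36 (-3.08), Blk (-2.89) and Klf6 (-2.60), all lower in 595sp VR and higher in 638bm VR. The reverse was seen in Dusp6 (5.26), Ccne2 (3.21), Cdc45 (2.76), E2f2 (2.58), Txn1 (2.39) and Ccnd3 (2.23). The second probe of Klf6 differed by 0.08 in the 595sp pair and 1.55 in the 638bm pair, so its lower level in 595sp VR depends on the probe.

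Genes that differed in the 595sp pair and by under 0.5 in the other were Atad1 (5.78), App (-5.70), Cd6 (5.22), Nupr1 (-4.82), Abcb1b (-4.70), Tcea3 (4.45), Lgals3bp (-4.37), Tomm22 (4.03), Cd28 (-3.67) and Prkcz (3.25). Those of the 638bm pair were Acot1 (-5.21), Tubb6 (-4.72), Cdh1 (4.50), Tdrd9 (4.46), Akap12 (4.19), Khk (-4.06), Ccnd1 (-3.91), Scn11a (3.68), Fos (-3.36) and Sgk1 (2.89).

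Shared genes whose size differed between the pairs were Pde4b (2.27), Tap2 (-2.16), Rgs16 (1.92), Tap1 (-1.59), Tst (-1.52), Fads1 (1.39), Msmo1 (1.31), Dhcr7 (-1.18), Eno1b (1.18), Scd2 (1.04), H2ac18 (1.01) and Ifitm1 (-1.01). The largest adjusted p among all 49 was 0.01945, for Eno1b (limma). With 1 untreated array per line, this test measures array error, and what sets the pairs apart was not tested.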

How the results depend on the processing

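The number of shared genes depended on the scale. Against 75 higher and 203 opposing genes, 30 and 133 remained in number without background correction, 30 and 133 with the authors' processed values, and 28 and 128 with an offset of 50; all 30, 30 and 28 were among the 75. The lower genes, 295, stayed within 1.5 times (200 to 310) under those scalings, median scaling and the stricter or absent filter. With each gene's second probe, 22 higher, 189 lower and 42 opposing genes came from 3668 genes, and 1818 and 1800 genes passed against duplicates in the 595sp and 638bm pair, fewer genes being tested. At 1.5-fold in both pairs the counts were 476, 628 and 646. With 1 pair alone, 662 to 909 genes were higher and 896 to 976 lower. Leaving the line out as a block (no replicate block) gave 0 calls, as the paired fit did, with 630 genes at an unadjusted p under 0.05 against 714. A model of all 24 arrays called 689 genes, 53 of the 75 higher, 258 of the 295 lower and 0 of the opposing; it counts the treated arrays of a line as repeats, while the fits on the 4 untreated arrays called 0. Direction turned for Nmd3 (0.29) and Tapbp (0.86) with the second probe, and for Clasp2 (0.19) with the second probe or RefSeq probes only, the latter chosen after seeing the data; the cause was not tested. Among other values of named genes, 683 stayed within the SD between the pairs (for genes of 1 pair, the SE from duplicate arrays) and 169 moved beyond it. The 683 include values of 1 pair alone, which always lie within the SD between the 2 pairs. They also include values under other filters, which change only where the probe changes. So the 683 is no measure of how stable the values are. Quantile normalisation of 4 arrays alone was not run against duplicates, which needs all arrays, and the column run could not be fitted.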
